A study of Mus musculus with 16 samples.

Results

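Keratins are the intermediate filament proteins of epithelial cells. Each filament pairs a type I with a type II keratin, and the pair in use marks the kind and the layer of an epithelium. Simple epithelia carry KRT8 with KRT18, the basal layer of stratified epithelia such as the epidermis carries KRT5 with KRT14 and also KRT15, and cells that leave the basal layer switch to KRT1 with KRT10. KRT6A and KRT17 belong to hair follicles and to epidermis under stress or repair. In the embryo the surface ectoderm, the sheet that becomes epidermis, starts from simple keratins and gains KRT5 and KRT14 as it stratifies under the transcription factor TRP63 (p63).

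The epidermal keratins examined here were KRT5, KRT14, KRT15, KRT17, KRT6A, KRT1 and KRT10, followed through every probe that carries one of these names. Of the 7 names, 6 had a probe, with 7 probes among the 45281 of the array. KRT1 had no probe under that name. The set was chosen by measured values of these arrays, because KRT14 and KRT15 headed the increases with BMP4 in co-cultures, so the BMP4 values of these keratins in co-cultures are given as a description, with no test.

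The arrays profiled cultures of mouse embryonic stem (ES) cells grown over a layer of PA6 stroma, a line that originates in murine bone marrow, and of that stroma alone, all in serum-free medium at day 7. The ES cells were a τ-EGFP knock-in line. Co-cultures comprised 2 arrays without growth factors (-GFs), 3 with FGF2 at 20 ng/ml and 2 with BMP4 at 10 ng/ml per the labels (the study's methods state a lower BMP4 dose), and PA6 mono-cultures comprised 3 arrays of each of the same kinds. The factor was given for the first 3 days and then withdrawn. Each array held RNA of one culture, so that a co-culture array mixed ES-derived and stromal RNA. In such bulk RNA, fewer cells of a type and less of a transcript per cell cannot be told apart.

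Values are normalised intensities on the log2 scale. A probe was counted as detected where its detection p-value was under 0.05, and the lowest signal of a detected probe lay between 6.25 and 6.96 on the 16 arrays. Between 37.3% and 47.0% of the probes were detected on an array. For a group with no detected value the fold is a bound, computed against that lowest signal or the value of the probe itself, whichever was higher, and written as at least so many fold. Levels of different probes cannot be ranked against each other.

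One upstream sequence is shown, because KRT5, the type II partner of KRT14, was detected with BMP4 in co-cultures and nowhere else. That detection was marginal on 1 of the 2 arrays. The RefSeq table for build GRCm38.p6 gave the 250 bases before the start of Krt5 at chr15:101712906-101713155 on the minus strand, printed 5′ to 3′ with the bases of a motif match in capitals.
Krt5 upstream: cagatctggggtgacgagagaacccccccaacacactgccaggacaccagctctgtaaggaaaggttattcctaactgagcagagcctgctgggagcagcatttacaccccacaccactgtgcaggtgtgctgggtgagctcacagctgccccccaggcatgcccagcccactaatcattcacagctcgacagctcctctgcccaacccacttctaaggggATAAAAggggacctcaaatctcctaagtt
The match, ATAAAA at position -29 from the start, is a variant of the TATA box TATAAA with which it shares letters, and it was searched for after the sequence had been read. It stood in 17.0% of 32851 upstream windows of that length, and TATAAA itself in 12.4%. The other motifs, all searched on both strands, had no match in the Krt5 window. They were GCCNNNGGC for AP-2, found in 13.7% of the windows, TGANTCA for AP-1, in 6.75%, GGGCGG for GC boxes, in 32.7%, and GGCGCC for SMAD proteins, in 9.59%. The entries for Krt14 and Krt10 start 1480 and 8085 bases inside the annotated genes and are not shown, and Krt15, Krt17, Krt6a and Krt1 are named only.

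KRT14, the type I basal keratin, read 14.15 and 12.47 on the 2 BMP4 co-culture arrays against 5.66 and 6.27 on the -GFs arrays, where it was not detected. The raw intensities with BMP4 were 16405 and 5692, so that the BMP4 arrays also differed clearly from each other. The means were 13.31 ± 1.19 (SD, n = 2) with BMP4 and 5.96 ± 0.43 (SD, n = 2) without a factor, a difference of at least 109.6-fold. Both BMP4 arrays stood far above every other array of the series.

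In FGF2 co-cultures KRT14 read 8.45, 5.60 and 6.26 and was detected on replicates 1 and 3. One array thus stood apart from its group, though still far below BMP4, and the FGF2 and -GFs groups overlapped. The change with FGF2 was 0.81 ± 0.85 (SE) on the log2 scale with an adjusted p of 0.636 (limma). It was -0.03 without FGF2 replicate 1. On the 9 PA6 arrays KRT14 lay between 5.54 and 6.34 and was not detected on any of them. The difference of FGF2 co-cultures from PA6 with FGF2 was 0.95 ± 0.58 (SE), adjusted p = 0.160 (limma), and became 1.54 with an adjusted p of 0.0289 without the second FGF2 co-culture array, where KRT14 was at its lowest.

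KRT15, a type I keratin of basal cells and of hair follicle stem cells, was likewise highest with BMP4 in co-cultures, but its FGF2 mean lay below its -GFs mean. It read 13.13 and 12.42 with BMP4 in co-cultures, 6.22 and 6.83 without a factor, and 5.95, 5.89 and 6.35 with FGF2. It was detected on replicate 2 of the -GFs arrays and on replicate 3 of the FGF2 arrays, close to the limit of detection. The means of 12.78 ± 0.50 (SD, n = 2) with BMP4 and 6.52 ± 0.43 (SD, n = 2) without a factor differed 76.2-fold. Unlike KRT14, KRT15 differed little between the BMP4 arrays, whose raw intensities were 7877 and 5484. Its change with FGF2 was -0.46 ± 0.30 (SE) with an adjusted p of 0.416 (limma).

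In PA6 mono-cultures KRT15 lay between 5.47 and 6.11 on 8 arrays and was undetected there. The remaining array, FGF2 replicate 3, read 7.37 and was detected. That single reading gave the PA6 FGF2 group a wide spread, and the change with FGF2 in PA6 was 0.43 ± 0.42 (SE), adjusted p = 0.737 (limma). The difference between co-culture and PA6 with FGF2 was -0.21 (adjusted p = 0.648) and turned to 0.35 (adjusted p = 0.285) without that array.

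KRT5, the type II basal keratin, read 7.13 and 6.36 with BMP4 in co-cultures, with raw intensities of 292.2 and 209.7, and these were the only 2 arrays on which it was detected. Detection was marginal on the second of them, with a detection p-value of 0.0417. Its raw intensity there was close to the 204.8 of -GFs replicate 1, where KRT5 was undetected. On the other 14 arrays KRT5 lay between 5.37 and 6.03. The BMP4 and -GFs means were 6.74 ± 0.54 (SD, n = 2) and 5.89 ± 0.20 (SD, n = 2), a difference of at least 1.15-fold. All 3 basal keratins therefore had their detected maximum in the same group, and in each case the first BMP4 array was the higher one.

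**Figure D1:**
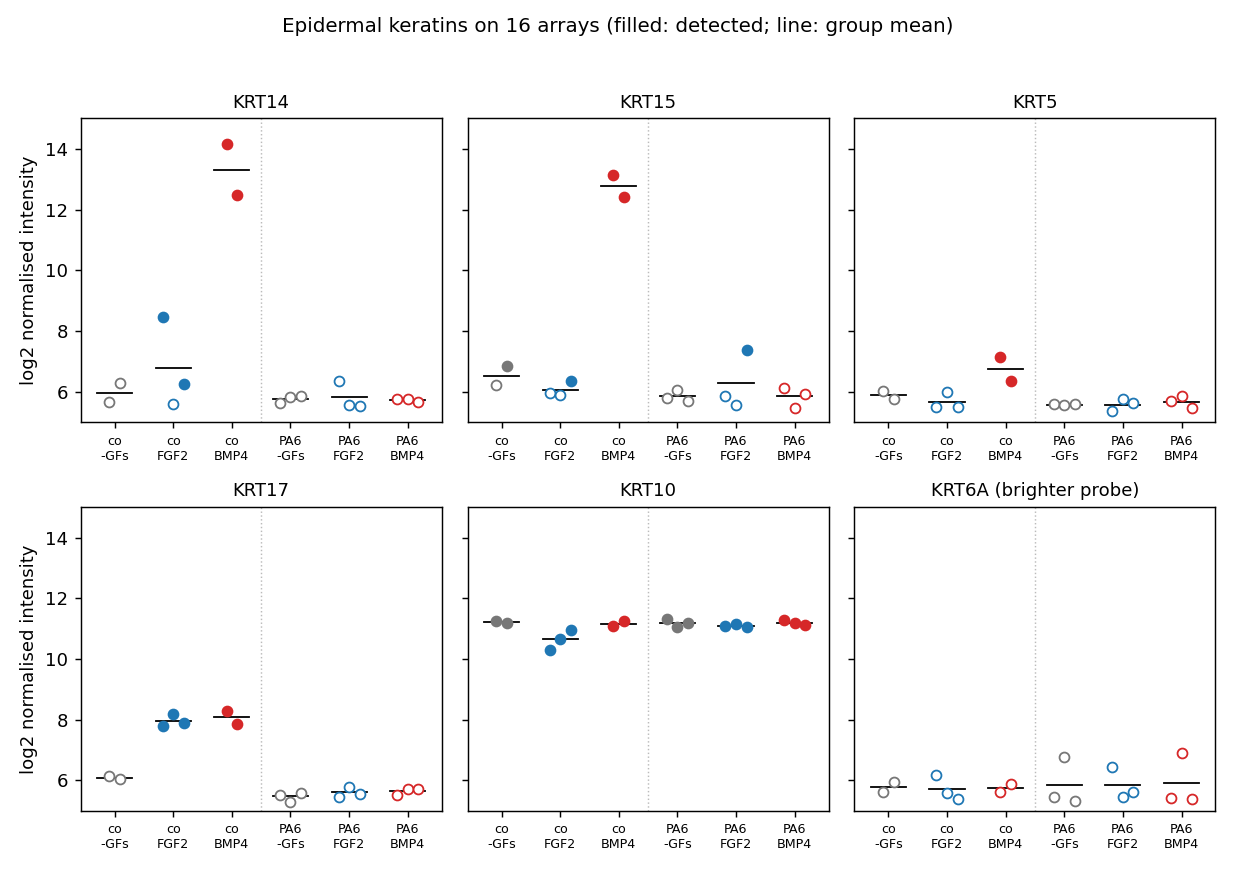
Normalised log2 intensity of KRT14, KRT15, KRT5, KRT17, KRT10 and the brighter KRT6A probe on each of the 16 arrays, by group (co: co-culture). Points are arrays, filled where the probe was detected, and lines are group means. KRT14 and KRT15 stood at 12.42 or above on the BMP4 co-culture arrays alone, KRT17 was detected in co-cultures with FGF2 and with BMP4, and KRT10 stood between 10.31 and 11.32 throughout.

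KRT17, the stress and hair follicle keratin, had another pattern and responded to both factors. It read 7.80, 8.18 and 7.89 with FGF2 in co-cultures and 8.30 and 7.84 with BMP4, against 6.13 and 6.04 without a factor, where it was not detected. The FGF2 and BMP4 arrays overlapped each other, and none overlapped the -GFs arrays. With FGF2 it rose by 1.87 ± 0.21 (SE) on the log2 scale, at least 2.68-fold, with an adjusted p of 0.00718 (limma). It was the only one of the 5 keratins tested that passed the threshold in this comparison (adjusted p under 0.1 and a change over 2-fold), which 7.42% of all 14829 genes passed, 5.07% upward. The comparison shares its -GFs arrays with the one that chose the set, and KRT17 entered the tests through the FGF2 and BMP4 co-culture groups, in which it is high. Without background correction its change was 0.98 (adjusted p = 0.00828), just under the 2-fold limit. With BMP4 the difference from -GFs was 1.99, at least 2.90-fold, and BMP4 and FGF2 differed by 0.11.

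On the 9 PA6 arrays KRT17 lay between 5.29 and 5.77 and was never detected. Under FGF2, KRT17 was higher in co-cultures than in PA6 by 2.36 ± 0.16 (SE), at least 2.23-fold, adjusted p = 2.32e-08 (limma). Neither group compared belongs to the contrast that chose the set, but the spread was estimated from all 16 arrays, those of that contrast included. The detection filter also favoured KRT17 through groups in which it is high. Of the 5 keratins tested KRT17 alone passed in this comparison, among 46.4% of all genes that did. With the arrays of the groups compared alone, the number of keratins called stayed at 1. The FGF2 change of KRT17 in PA6 was 0.13 ± 0.14 (SE, adjusted p = 0.764). The difference between its FGF2 changes in both kinds of culture was 1.74 ± 0.24 (SE), adjusted p = 0.000995 (limma, all 16 arrays), a value that rests on the -GFs arrays that chose the set and on the same filter. It is not exact, since KRT17 was undetected in -GFs co-cultures and in PA6. For KRT14, KRT15, KRT5 and KRT10 the same difference had adjusted p-values from 0.240 to 0.710.

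KRT6A, the type II keratin of stressed and follicular epithelium, was detected on none of the 16 arrays by either of its probes, whose values ranged from 5.34 to 6.92. It did not pass the detection filter and was not tested. KRT16, the stress keratin that pairs with KRT6, was likewise undetected on all 16 arrays. KRT17 was therefore measured in co-cultures without a detected signal from the other stress keratins.

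Among the suprabasal keratins KRT10 was detected on all 16 arrays, PA6 included. It read 11.26 and 11.18 without a factor, 10.31, 10.67 and 10.96 with FGF2 and 11.07 and 11.24 with BMP4 in co-cultures, and between 11.07 and 11.32 in PA6. The FGF2 co-culture arrays were thus the lowest of the series and did not overlap the -GFs arrays. The change with FGF2 was -0.57 ± 0.22 (SE), adjusted p = 0.186 (limma), and 22.1% of all genes had FGF2 arrays that all lay below the -GFs arrays. Against PA6 with FGF2 it was -0.46 ± 0.15 (SE), adjusted p = 0.0171, a change of less than 2-fold. With BMP4, KRT10 differed from -GFs by -0.06. KRT1, its type II partner, had no probe of its own name. A probe named KRT2-1, an old name outside the chosen set, was undetected on all 16 arrays.

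In PA6 cells alone no keratin of the set passed, but only KRT10 could be compared there above background. KRT5, KRT14 and KRT17 were undetected on all 9 PA6 arrays, and KRT15 was detected on 1, so their tests carry no weight. With FGF2 in PA6, none of the 5 keratins tested passed the threshold (limma), as against 0.027% of all genes, and none had an unadjusted p under 0.05, which 10.4% of all genes had. With BMP4 in PA6 none passed either, as against 0% of all genes (limma), none of the 5 had an unadjusted p under 0.05, and 1334 of the 14829 genes had one. KRT10 was the only member detected in every PA6 group, and its change there was -0.09 ± 0.12 (SE) with FGF2, while its means with and without BMP4 were both 11.19. Without growth factors, none of the 5 passed between co-cultures and PA6, where 44.1% of all genes did. KRT17 was higher in co-cultures by 0.61 ± 0.18 (SE) with an adjusted p of 0.00821 (limma), a change of less than 2-fold with no detected value on either side.

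Between the BMP4 cultures, the contrast with PA6 was wide for the basal keratins. KRT14 was at least 88.2-fold and KRT15 at least 60.8-fold higher in co-cultures with BMP4 than in PA6 with BMP4, and KRT17 was at least 2.34-fold higher. KRT5 had no fold bound above the detection level of the PA6 arrays. Against FGF2 co-cultures, KRT14 was higher by 6.54 and KRT15 by 6.71 with BMP4. Of the 5 keratins that passed the filter, 4 had BMP4 arrays that all lay above the -GFs arrays in co-cultures, where 22.8% of all genes did. These values used the arrays that chose the set, and KRT5, KRT14 and KRT15 passed the filter through the BMP4 co-culture group alone, so the count carries no weight of its own.

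The other keratin genes give the surroundings of these values. Mouse keratin genes lie in a type I cluster on chromosome 11 and, apart from KRT18, a type II cluster on chromosome 15. On chromosome 11, 27 keratin genes had a probe, of which 12 were detected on no array and 9 on both BMP4 co-culture arrays. On chromosome 15 the numbers were 20, 9 and 4. KRT15 and KRT14 stand a few genes apart with KRT19 and KRT9 between them. Their neighbours KRT13, KRT9 and KRT16 were undetected on all 16 arrays. KRT19, a simple keratin, was detected on all 7 co-culture arrays and differed by -0.27 between BMP4 and -GFs (adjusted p = 0.934, limma), and KRT17, on the far side of KRT16, was higher with BMP4 as given above.

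**Figure D2:**
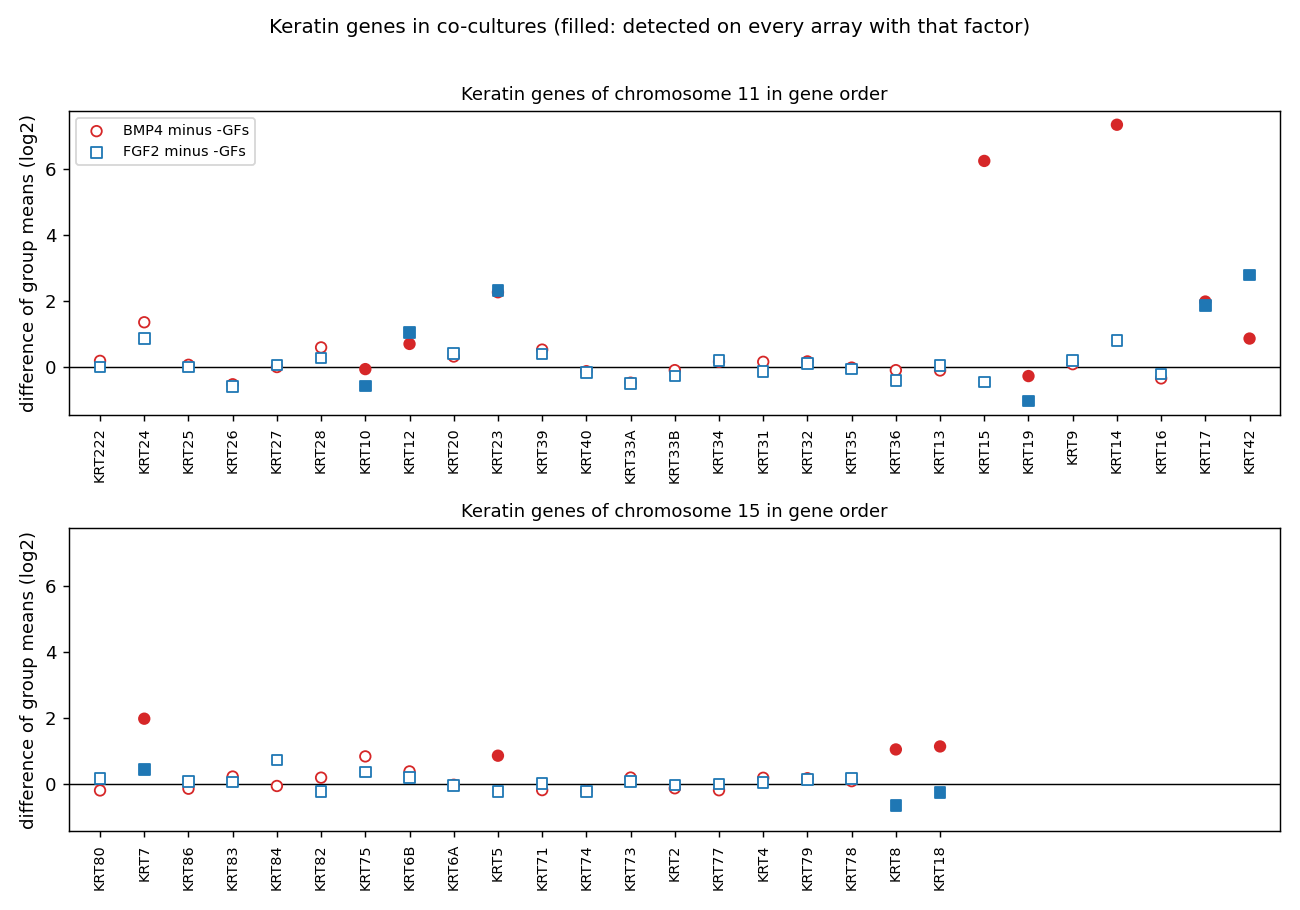
Difference of group means (log2 scale) between BMP4 and -GFs co-cultures (circles) and between FGF2 and -GFs co-cultures (squares) for keratin genes in their order along chromosomes 11 and 15. Symbols are filled where the probe was detected on every array with that factor. KRT14 (plotted at 7.35) and KRT15 (6.25) are far from 0 with BMP4, and KRT42 (2.80), KRT23 (2.32) and KRT17 (1.87) with FGF2, but KRT14 and KRT17 were undetected without a factor, so that their plotted differences are not exact.

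Among the simple keratins, 6 genes on the array of which 5 were tested, 2 rose with BMP4 and none fell, with a median change of 1.13 beside -0.002 for all genes, of which 3.75% passed and 2.28% rose. KRT7, the type II keratin of ducts, read 8.50 and 9.22 with BMP4 and 6.79 and 6.99 without a factor, a rise of 1.97 ± 0.27 (SE), adjusted p = 0.0210 (limma). KRT18 rose by 1.13 ± 0.19 (SE), adjusted p = 0.0398, but lost its call when any one of the 4 arrays was left out. KRT8, its partner, changed by 1.04 (adjusted p = 0.245), and KRT23 by 2.27 (adjusted p = 0.189). With FGF2, where 7.42% of all genes passed, KRT23 alone of the simple keratins did, at 2.32 ± 0.65 (SE, adjusted p = 0.0870), with its call lost without either -GFs array or FGF2 replicate 1. The changes of KRT7, KRT8 and KRT19 were 0.43, -0.65 and -1.03 and did not pass. Against FGF2, KRT8, KRT7 and KRT18 were higher with BMP4 by 1.69, 1.54 and 1.40 (adjusted p = 0.0967, 0.0633 and 0.0350). Of all genes, 0.755% passed upward in that comparison. KRT8 and KRT18 were detected on all 7 co-culture arrays and on no PA6 array.

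Of the 35 other keratins on the array, 6 were bright enough to be tested. None passed with BMP4, the largest change being that of KRT42 at 0.86 (adjusted p = 0.455). The rest named by the rule were KRT75 at 0.83, KRT12 at 0.70 and KRT26 at -0.52. With FGF2, KRT42 and KRT12 passed. KRT42, the type I keratin gene next to KRT17, rose by 2.80 ± 0.42 (SE), adjusted p = 0.0140, and lost its call (adjusted p = 0.107) without -GFs replicate 1. KRT12, the keratin of the cornea, rose by 1.05 ± 0.30 (SE), adjusted p = 0.0958, and lost its call when any one of the 5 arrays was left out. KRT26 and KRT33A changed by -0.58 and -0.49 without passing.

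KRT42 had 3 probes, which allowed a check of its difference from KRT17. Its brightest probe read 9.52, 9.91 and 10.06 with FGF2, 8.59 and 7.21 with BMP4 and 6.73 and 7.35 without a factor. The second probe read 9.23, 9.63 and 9.60 with FGF2, 7.73 and 6.72 with BMP4, and was undetected without a factor. The third was detected with FGF2 alone, at 7.31, 7.33 and 7.92. With each of the 3 probes the BMP4 arrays lay below the FGF2 arrays, with differences of means between -1.39 and -2.26, whereas FGF2 and BMP4 arrays overlapped for KRT17. The third probe, with the difference of -1.39, was undetected on both BMP4 arrays, so that its difference is not exact. In the test of BMP4 against FGF2 the brightest probe did not pass (adjusted p = 0.114, limma). Across the 16 arrays KRT17 correlated with the KRT42 probes at r = 0.76 to 0.89, a figure to which the difference between both kinds of culture contributes.

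**Figure D3:**
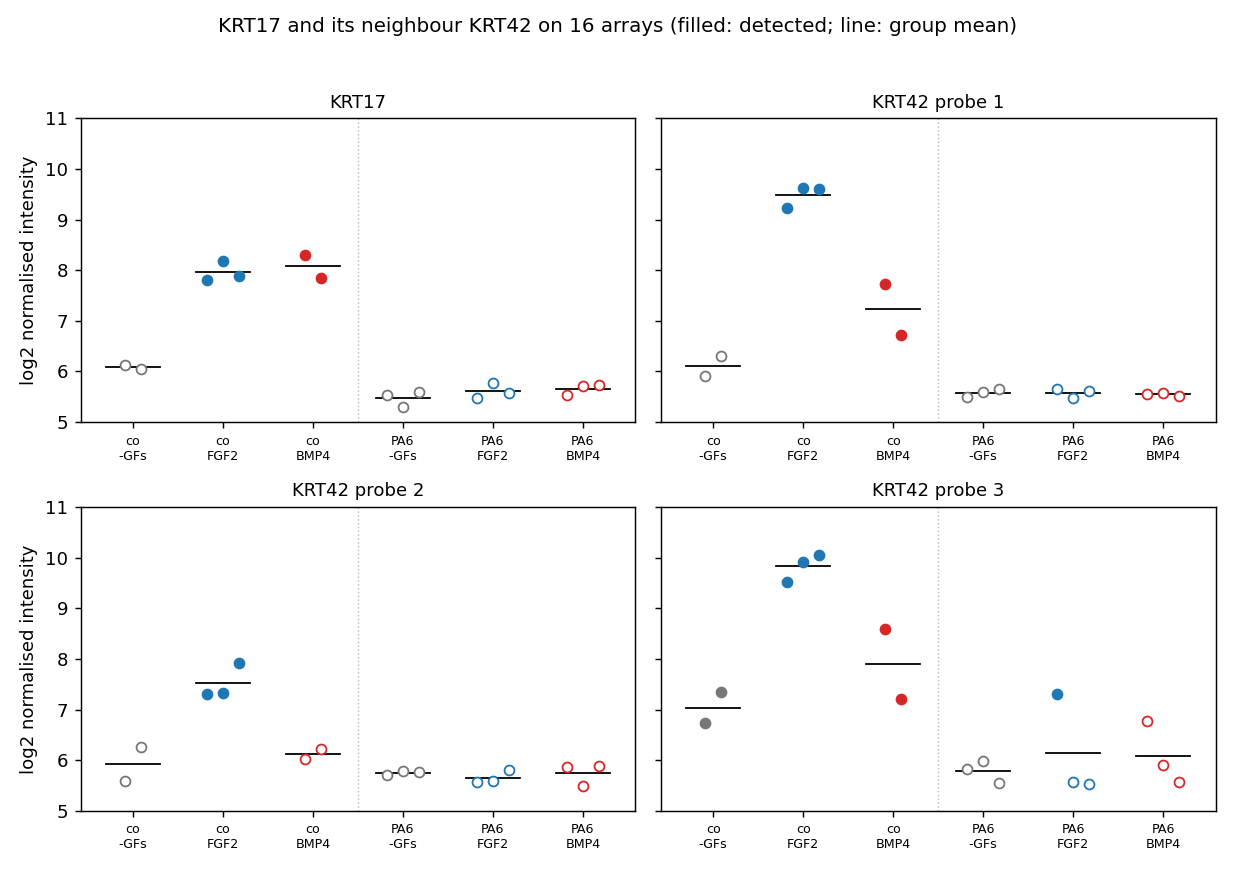
Normalised log2 intensity of KRT17 and of the 3 probes of KRT42, its neighbour on chromosome 11, on each of the 16 arrays by group (co: co-culture). Points are arrays, filled where detected, and lines are group means. KRT17 stood near 8 with either factor in co-cultures, whereas each KRT42 probe stood higher with FGF2 than with BMP4, a difference that did not pass the test for its brightest probe.

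Genes that work with the basal keratins were followed in lists put together with earlier results of these data known, and the BMP4 contrast is the one that chose the keratins, so their counts are given beside those of all genes and carry no weight as independent evidence. With BMP4 in co-cultures 3.75% of all genes passed, 2.28% upward. Of 16 transcription factors of the epidermis that were tested, 9 rose and none fell, with a median change of 1.90. Without one of the 4 arrays the count of rises was between 3 and 7, the lowest being that without BMP4 replicate 1.

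TRP63, the master regulator of stratified epithelia, read 10.95 and 10.81 with BMP4 in co-cultures against 6.07 and 5.70 without a factor, where it was undetected, and 6.71, 5.75 and 6.63 with FGF2. It rose by 4.99 ± 0.34 (SE), at least 20.3-fold, adjusted p = 0.00251 (limma), and by 4.51 against FGF2 (adjusted p = 0.00292). It was also detected on 8 of the 9 PA6 arrays, at 6.72 to 8.08 over all 9. BNC1, a basal keratinocyte zinc finger protein, rose by 2.16 ± 0.30 (SE, adjusted p = 0.0228) and lost its call without BMP4 replicate 1 (adjusted p = 0.141). KLF4, a barrier and pluripotency factor, read 9.68 and 8.60 with BMP4 and 6.97 and 7.06 without a factor, and its rise of 2.12 was at the threshold (adjusted p = 0.0998) and was lost when any one of these arrays was left out. In PA6 alone KLF4 was detected on every array without a factor and with BMP4, with means of 10.63 and 9.47.

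With FGF2, 6 of the 16 rose and none fell, while 5.07% of all genes rose and 2.35% fell. KLF4 rose by 3.37 ± 0.47 (SE, adjusted p = 0.0111), ELF3 by 3.19 ± 0.47 (SE, adjusted p = 0.0135), KLF5 by 2.67 ± 0.34 (SE, adjusted p = 0.00918) and TCFAP2C by 2.25 ± 0.21 (SE, adjusted p = 0.00451). TRP63 changed by 0.48 with FGF2 (adjusted p = 0.417) and BNC1 by 0.45 (adjusted p = 0.395). The direct comparison of BMP4 with FGF2 had 4 of the 16 factors higher with BMP4, namely TRP63, GATA3 by 1.97 (adjusted p = 0.0353), DLX3 by 1.78 (adjusted p = 0.00812) and BNC1 by 1.72 (adjusted p = 0.0640), among 0.755% of all genes. KLF4, ELF3 and KLF5 differed by -1.25, -1.23 and -0.82 and did not pass.

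Genes that anchor a basal cell were followed in a list of desmosome, hemidesmosome and basement membrane components. Among all genes, 2.28% rose and 1.47% fell with BMP4. With BMP4, 6 of 13 rose and none fell, with 4 to 6 rises when one array was left out. LAMA3, a chain of the basement membrane laminin, read 9.63 and 9.23 against 5.68 and 5.59, a rise of at least 7.42-fold (adjusted p = 0.00120, limma). COL17A1, the transmembrane collagen of hemidesmosomes, read 9.31 and 8.96 against 5.69 and 5.79, at least 6.05-fold (adjusted p = 0.00925), and DSP, which ties desmosomes to keratin filaments, read 8.72 and 8.57 against 5.78 and 5.68, at least 4.33-fold (adjusted p = 0.00141). ITGB4, the hemidesmosome integrin, read 11.85 and 10.61 against 6.85 and 7.45, a rise of 4.08 ± 0.65 (SE, adjusted p = 0.0328) that lost its call without either -GFs array and without BMP4 replicate 1. In PA6 alone ITGB4 was detected on every array without a factor and with BMP4, with means of 8.30 and 8.28.

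With FGF2, 4 of the 13 rose, beside 5.07% of all genes, namely DSG2 by 2.29 ± 0.33 (SE, adjusted p = 0.0125), ITGB4 by 2.13 ± 0.60 (SE, adjusted p = 0.0879), LAMA3 by 2.04 ± 0.20 (SE, adjusted p = 0.00476) and PKP3 by 1.43 ± 0.28 (SE, adjusted p = 0.0329). Among these, ITGB4 lost its call without either -GFs array and without FGF2 replicate 2 or 3, and PKP3 without -GFs replicate 2. COL17A1 changed by 0.24 with FGF2 (adjusted p = 0.711). LAMA3 was undetected without a factor, so its FGF2 difference is taken against background and is not exact. BMP4 exceeded FGF2 in COL17A1 by 3.15 (adjusted p = 0.0134), DSP by 2.16 (adjusted p = 0.00390), LAMA3 by 1.75 (adjusted p = 0.0237) and PKP3 by 1.42 (adjusted p = 0.0967). Of all genes, 0.755% passed upward in that comparison.

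**Figure D4:**
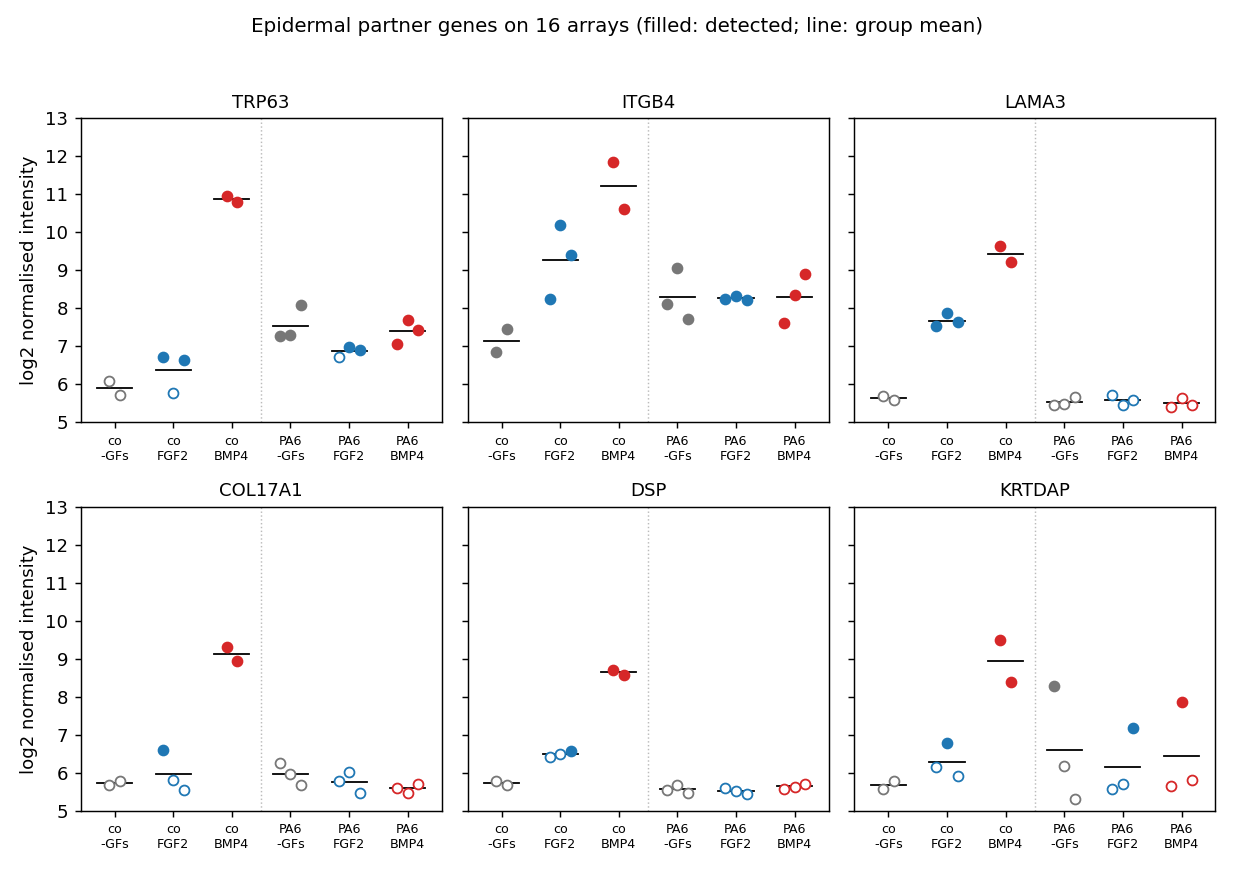
Normalised log2 intensity of TRP63, ITGB4, LAMA3, COL17A1, DSP and KRTDAP on each of the 16 arrays by group (co: co-culture). Points are arrays, filled where detected, and lines are group means. On the BMP4 co-culture arrays TRP63 read 10.95 and 10.81 and COL17A1 9.31 and 8.96, above every other array, whereas LAMA3 was also detected with FGF2.

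Most late differentiation genes stayed below the detection filter. Of 22 such genes on the array, those of the cornified envelope included, 8 could be tested. Of these, 2 rose with BMP4 and none fell, while 2.28% of all genes rose and 1.47% fell. KRTDAP, a secreted protein of differentiating keratinocytes, read 9.51 and 8.40 against 5.59 and 5.79, at least 5.35-fold (adjusted p = 0.0175, limma), and was also detected on single PA6 arrays at 8.29, 7.19 and 7.87. PPL, a cornified envelope precursor that desmosomes also hold, rose at least 1.44-fold (adjusted p = 0.0262) and lost its call without -GFs replicate 2 or either BMP4 array. PPL was also detected in PA6 alone, on all 3 arrays without a factor (mean 8.48) and on 1 with BMP4 (mean 7.14). GRHL3, which was also counted among the transcription factors, and LOR changed by 1.08 and 0.70 with BMP4 and did not pass. With FGF2, GRHL3 rose by 1.20 ± 0.34 (SE, adjusted p = 0.0937) and lost its call whenever an array other than FGF2 replicate 1 was left out. LOR, KRTDAP and EVPL changed by -0.88, 0.59 and 0.56 without passing.

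The genes most like the keratins in pattern were ranked by Pearson correlation over the 16 arrays with the mean standardised profile of the 5 detected keratins. The highest were 4631405K08RIK (r = 0.97), GJB2, WNT6, SFN, AMTN, KREMEN2, IRX4 and LOC100042514 (r = 0.94). WNT6, a Wnt ligand of the surface ectoderm, was undetected on 14 arrays and averaged 10.77 ± 0.19 (SD, n = 2) on the other two, the BMP4 co-cultures. GJB2, a gap junction protein of keratinocytes, averaged 12.67 ± 0.09 (SD, n = 2) with BMP4, 7.50 ± 0.45 (SD, n = 2) without a factor and 6.52 ± 0.63 (SD, n = 3) with FGF2. SFN, the 14-3-3 protein of stratified epithelia, was likewise detected on the BMP4 co-culture arrays alone, where its mean was 8.72 ± 0.68 (SD, n = 2). These correlations rest on the 2 BMP4 co-culture arrays that chose the set.

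KRT14 and KRT15 correlated at r = 0.94 over the 16 arrays, and KRT5 correlated with them at r = 0.80 and 0.84. KRT14 and KRT15 were chosen for their rise on the BMP4 co-culture arrays, so these values carry no weight of their own. Away from BMP4 they differed. On FGF2 co-culture replicate 1 KRT14 read 8.45, while KRT15 read 5.95 and was undetected. On PA6 FGF2 replicate 3 KRT15 read 7.37, while KRT14 read 5.54 and was undetected. KRT14 was most like LYPD6B (r = 0.98), and COL17A1 was among its first 3. KRT17 was most like other genes, with TCSTV1 first (r = 0.99), followed by LOC100045198 and BC080695. TCSTV1, which is known from early embryos and a minor state of ES cell cultures, averaged 10.45 ± 0.79 (SD, n = 3) with FGF2 and 11.04 ± 0.62 (SD, n = 2) with BMP4 in co-cultures, 6.51 ± 0.07 (SD, n = 2) without a factor, and was undetected in PA6. KRT17 correlated with the pluripotency genes POU5F1, ZFP42 and NANOG at r = 0.93, 0.91 and 0.91, to which the difference between both kinds of culture again contributes. It was undetected in co-cultures without a factor, where those markers were detected. KRT10 correlated with KRT17 at r = -0.56, being low on the FGF2 co-culture arrays but not with BMP4.

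Markers of other cell types moved in the same groups. Among all genes in co-cultures, 5.07% rose and 2.35% fell with FGF2, and 2.28% rose and 1.47% fell with BMP4. Of 8 markers of undifferentiated ES cells, 7 rose with FGF2 and 3 with BMP4 in co-cultures, and their summed linear intensity was 41647 to 47999 without a factor, 122553 to 140341 with FGF2 and 73675 to 94252 with BMP4. Of 7 general epithelium markers tested, 3 rose with FGF2 and 3 with BMP4, and their sums over all 8 markers were 3091 to 5147, 8192 to 11848 and 10282 to 11911 in the same order, with the EPCAM probe undetected in each group. Of the 4 endothelial markers tested, 2 rose with either factor, and of the 5 neural markers tested 2 fell with either. The endothelial markers CDH5, KDR, TIE1 and ICAM2 and the neural markers TUBB3, SOX1 and PAX6 did not pass the detection filter. None of the 8 stroma markers passed with either factor in co-cultures, their sums being 49569 to 62142 over the 7 co-culture arrays. All 8 trophoblast markers were undetected with BMP4 in co-cultures. The part of these markers in the keratin values was not tested.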

How the data were processed

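RNA of 16 cultures was hybridised to Illumina MouseWG-6 v2.0 BeadChips. The deposited table gives an average intensity per probe and array, not normalised between arrays by the authors, and a deposited detection p-value. The submitters' processing notes name GenomeStudio 2011.01. Intensities were background corrected (normexp from the detection p-values), raised by an offset of 16, quantile normalised and log2 transformed (neqc, limma 3.58.1, R 4.3.3). Probes had to be detected (p under 0.05) throughout at least 1 group, which 20880 were, and the brightest probe stood for a gene, which left 14829 genes. The limma models used the 7 arrays of co-cultures, the 9 of PA6, or all 16 for comparisons between cultures. A gene was called at a Benjamini-Hochberg adjusted p under 0.1 and a change over 2-fold. Fits were tested on simulated data. The number of arrays limits the precision. Probe sequences were not used here, so that cross-hybridisation among keratins was not checked.

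The keratins and gene lists were chosen with earlier results of these data known. All member probes are described, and from each list up to 4 genes with the largest change, called ones first. Keratins of the set were not tested in comparisons that used the BMP4 co-culture arrays. Other genes named were chosen after their values were seen. Some genes that these rules name are not reported here. Lists held 20 epidermal transcription factors, 6 simple keratins, 35 other keratins, 20 desmosome, hemidesmosome and basement membrane genes, 22 late differentiation genes, and 8 markers each of epithelium, undifferentiated ES cells, neural, endothelial, trophoblast and stroma cells. Biological replicates were separate cultures per the labels.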

Additional observations from a re-analysis of the deposited data

Results flagged for a closer look

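The effect of FGF2 on KRT17 differed between the kinds of culture. The log2 change amounted to 1.87 where ES cells were present and to 0.13 in PA6 alone, a difference of 1.74 ± 0.24 (SE) with an adjusted p of 0.000995 (limma). All 3 FGF2 co-culture arrays lay above both -GFs arrays. KRT17 was undetected on both -GFs co-culture arrays and on the 6 PA6 arrays compared. These changes and their difference are thus taken against background and are not exact. As a bound, the rise in co-cultures was at least 2.68-fold. The test uses the -GFs co-culture arrays on which the keratins were chosen, and KRT17 passed the detection filter through the FGF2 and BMP4 co-culture groups, in which it is high. No group had the 4 arrays that a check for single outlying arrays needs.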

How the results depend on the processing

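The comparisons were repeated under 10 other settings and with each array left out in turn. Of the 5 tested keratins of the set, KRT17 alone was called with FGF2 in co-cultures, and the number of them called was 0 without background correction and 0 when detection on all 16 arrays was required, which leaves KRT10 alone among the keratins. With each array left out it stayed at 1. Between co-cultures and PA6 with FGF2, the number called was 0 under detection on all 16 arrays and 1 to 2 with each array left out, the second being KRT14 without FGF2 replicate 2. In PA6, and between co-cultures and PA6 without growth factors, it was 0 under every setting run. For the comparisons described without a test, the median change over the keratins that passed the filter was 1.99 for BMP4 against -GFs in co-cultures, 1.09 for BMP4 against FGF2 and 2.42 for co-culture against PA6 with BMP4. Under detection on all 16 arrays these were -0.063, 0.51 and -0.033, the values of KRT10 alone. At a detection p under 0.01, where KRT5 no longer passed the filter, they were 4.12, 3.53 and 4.68. The first and the last were 1.05 and 1.38 without background correction, 1.58 and 1.85 with an offset of 50, and 1.42 and 1.75 without a filter on dim probes.

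Replicate numbers did not pair the co-cultures: same-numbered arrays deviated together at r = -0.20 to 0.28 there and at 0.07 to 0.20 in PA6. With the replicate number as a block, the number of keratins called stayed at 1 for FGF2 in co-cultures, and the median change for BMP4 against -GFs stayed at 1.99. Among the other genes named, the block ended the BMP4 calls of KLF4, KRT18, ITGB4 and PPL (adjusted p = 0.210, 0.116, 0.116 and 0.104) and the FGF2 calls of KRT23, ITGB4, PKP3 and GRHL3 (0.111, 0.203, 0.101 and 0.197). Arrays in the same run of table columns deviated together at r = 0.10 to 0.28 in co-cultures, and a block by these runs ended the calls of KLF4 with BMP4 (0.121) and GRHL3 with FGF2 (0.106) and gave one to KRT8 with BMP4 (0.0967). Of 52 results on single genes with a test, tried 719 times in all, 635 kept their direction and side of the threshold, 65 lost and 8 gained a call, and 11 changed sign, none of them a call. These were KRT10 between co-cultures and PA6 without a factor (-0.24 with median scaling, and -0.031 without PA6 -GFs replicate 2 to 0.094 with each array left out in turn), KRT10 with BMP4 in PA6 (-0.060 to 0.064 with each array left out), KRT14 with FGF2 in co-cultures (-0.028 without FGF2 replicate 1, up to 1.39 without another array), KRT15 between co-cultures and PA6 with FGF2 (0.35 without PA6 FGF2 replicate 3, down to -0.56 without another), KRT33A with FGF2 (0.039 without -GFs replicate 1, -1.03 without -GFs replicate 2), and KRT75 and LOR with BMP4 (-0.051 and -0.11 without BMP4 replicate 1, 1.71 and 1.5 without BMP4 replicate 2). The cause was not tested. Median scaling moved the median of all genes by up to 0.25 (BMP4 against FGF2 in co-cultures), and KRT10 was then 0.78 higher with BMP4 than with FGF2. TRP63, LAMA3, COL17A1, DSP, KRT7 and KRTDAP kept their BMP4 calls in all 13 settings that measured them.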
